A study of Rattus norvegicus with 16 samples.

Results

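The genes that write, erase and read DNA methylation were described in RNA-seq libraries from the hypothalamus and the hippocampus of male Sprague Dawley rats. Of the 9 symbols listed, 6 had a row in both expression tables, among 15892 symbols that the tables share: the writers Dnmt1, Dnmt3a and Dnmt3b, and the readers Mbd1, Mbd2 and Mbd3. The erasers Tet1, Tet2 and Tet3 had no row under these symbols and were not analysed here. The members were chosen by symbol alone, and where a symbol had several loci the locus with the highest mean was taken. The fructose groups were rats fed fructose for 6 weeks, with 3 hypothalamus and 4 hippocampus libraries, and the control groups carry the treatment label none, with 4 libraries in each region. Replicate 4 of the fructose hypothalamus group is labelled, but no column of the tables used here matches it. The labels give neither the fructose dose nor the age of the rats, and they do not say whether each library came from a separate animal, so p-values measure the spread between these libraries only.

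DNA methylation in mammals is carried mainly by cytosines in CG dinucleotides. Dnmt1 copies the pattern onto the new strand after replication, while Dnmt3a and Dnmt3b place methyl groups on unmethylated DNA. The Tet enzymes oxidise methylcytosine, which is then lost by dilution or by base excision repair. The Mbd proteins share a methyl-CpG-binding domain and bring corepressors to the DNA. Mbd1 also binds DNA through zinc fingers, Mbd2 binds methylated CG and is a subunit of the NuRD deacetylase complex, and mammalian Mbd3 is a NuRD subunit that has largely lost selectivity for methylated DNA. Neurons do not divide, yet they keep Dnmt1 and Dnmt3a, and both enzymes are known for roles in synaptic plasticity and memory in rodents.

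Values were the authors' FPKM, which scale fragments by transcript length and by library size. Sums of FPKM ran between 435105 and 492778 over hypothalamus libraries and between 353703 and 402099 over hippocampus libraries, and the sequencing depth is unknown. Replicate 1 stood apart in both treatments. In the hypothalamus the replicate 1 libraries correlated with each other at r = 0.990 and with the remaining libraries at 0.949 to 0.961, and in the hippocampus at r = 0.992 and 0.930 to 0.955, all across genes on log2(FPKM + 1). A total of 88 hypothalamus and 137 hippocampus loci were listed at 0 in both replicate 1 libraries and at 1 FPKM or more in every other library, and 86 and 133 of these loci belonged to symbols with several loci. The sum of 8 hypothalamus markers was 3261 to 6538 FPKM in fructose and 4626 to 8834 FPKM in control hypothalamus libraries. The same sum was 2.85 to 27.7 FPKM in fructose and 3.10 to 7.23 FPKM in control hippocampus libraries, with fructose replicate 1 the highest. The sum of the hippocampus markers was 34.2 to 48.3 FPKM in fructose and 40.4 to 59.9 FPKM in control hypothalamus libraries, against 169 to 349 FPKM in fructose and 174 to 262 FPKM in control hippocampus libraries. The tissue labels were therefore borne out by their markers in every library. As these are bulk samples, fewer cells of a type and less RNA per cell cannot be told apart.

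The promoters of 5 of these genes held more of the CG dinucleotides that their products act on than the median rat promoter window. The pair with the fewest and the most CG is shown for that reason. RefSeq's table for the rat assembly GRCr8 held a window of 300 bases, 250 before and 50 after the transcript start, for 5 of the 6 genes, with none for Dnmt3b. The windows are printed 5′ to 3′ on the strand of the gene, in lower case with each CG in capitals. The Dnmt1 window lies at chr8:27762792-27763091 on the minus strand and the Mbd2 window at chr18:66449108-66449407 on the plus strand.
Dnmt1: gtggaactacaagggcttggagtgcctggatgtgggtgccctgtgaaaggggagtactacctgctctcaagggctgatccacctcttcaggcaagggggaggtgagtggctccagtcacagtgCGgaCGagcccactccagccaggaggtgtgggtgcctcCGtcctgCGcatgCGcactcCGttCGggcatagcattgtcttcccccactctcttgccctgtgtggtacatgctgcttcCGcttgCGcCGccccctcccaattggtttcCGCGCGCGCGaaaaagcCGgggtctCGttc
Mbd2: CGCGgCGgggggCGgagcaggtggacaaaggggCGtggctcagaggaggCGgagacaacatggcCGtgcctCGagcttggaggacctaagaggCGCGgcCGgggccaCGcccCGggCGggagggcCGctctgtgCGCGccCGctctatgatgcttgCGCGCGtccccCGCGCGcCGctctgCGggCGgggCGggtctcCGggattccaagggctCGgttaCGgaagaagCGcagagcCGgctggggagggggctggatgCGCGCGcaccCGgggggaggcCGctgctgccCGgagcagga
The Dnmt1 window held 17 CG and the Mbd2 window 39 CG. Dnmt3a held 21, Mbd3 held 23 and Mbd1 held 25. The median over all 33469 windows was 7, and 71.0% of windows held fewer CG than that of Dnmt1, while 96.2% held fewer than that of Mbd2. All 5 windows therefore stood above the median window. The observed-to-expected CG ratio was 0.956 in Mbd2, 0.847 in Mbd1, 0.801 in Mbd3, 0.583 in Dnmt1 and 0.535 in Dnmt3a, against a median of 0.392. The GC-box core GGGCGG, searched on both strands and itself holding a CG, occurred 5 times in Mbd3, 4 times in Mbd2, 2 times in Dnmt3a, once in Dnmt1 and not in Mbd1, and 33.1% of all windows held it. These matches describe the sequence only, and methylation of these windows was not measured here.

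Transcript levels separated the members by role. FPKM is a value per length, so levels can be set beside each other between genes. In both regions the readers lay above the writers, in the order Mbd3, Mbd2, Mbd1, Dnmt1, Dnmt3a and Dnmt3b by group mean. Mbd3 exceeded Mbd2 in 6 of 7 hypothalamus libraries and in 8 of 8 hippocampus libraries, with a ratio between 0.943 and 1.77 in the hypothalamus and between 1.12 and 1.86 in the hippocampus. The exception was hypothalamus fructose replicate 2, and the FPKM ranges of Mbd3 and Mbd2 overlapped in both fructose groups but in neither control group. Mbd2 above Mbd1, Mbd1 above Dnmt1 and Dnmt1 above the main Dnmt3a locus held in every library of both regions, and these neighbours did not overlap within any group. Dnmt3b was the lowest writer, with fructose hypothalamus libraries at 0.172, 0.147 and 0.153 FPKM and control hypothalamus libraries at 0.0989, 0.131, 0.376 and 0.170 FPKM. Fructose hippocampus libraries had 0.216, 0.148, 0.0996 and 0.113 FPKM of Dnmt3b, against 0.0515, 0.109, 0.0711 and 0.157 FPKM in control hippocampus libraries. Dnmt3b was under a mean of 1 FPKM in both regions, its groups overlapped, and it was left out of all tests.

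**Figure D1:**
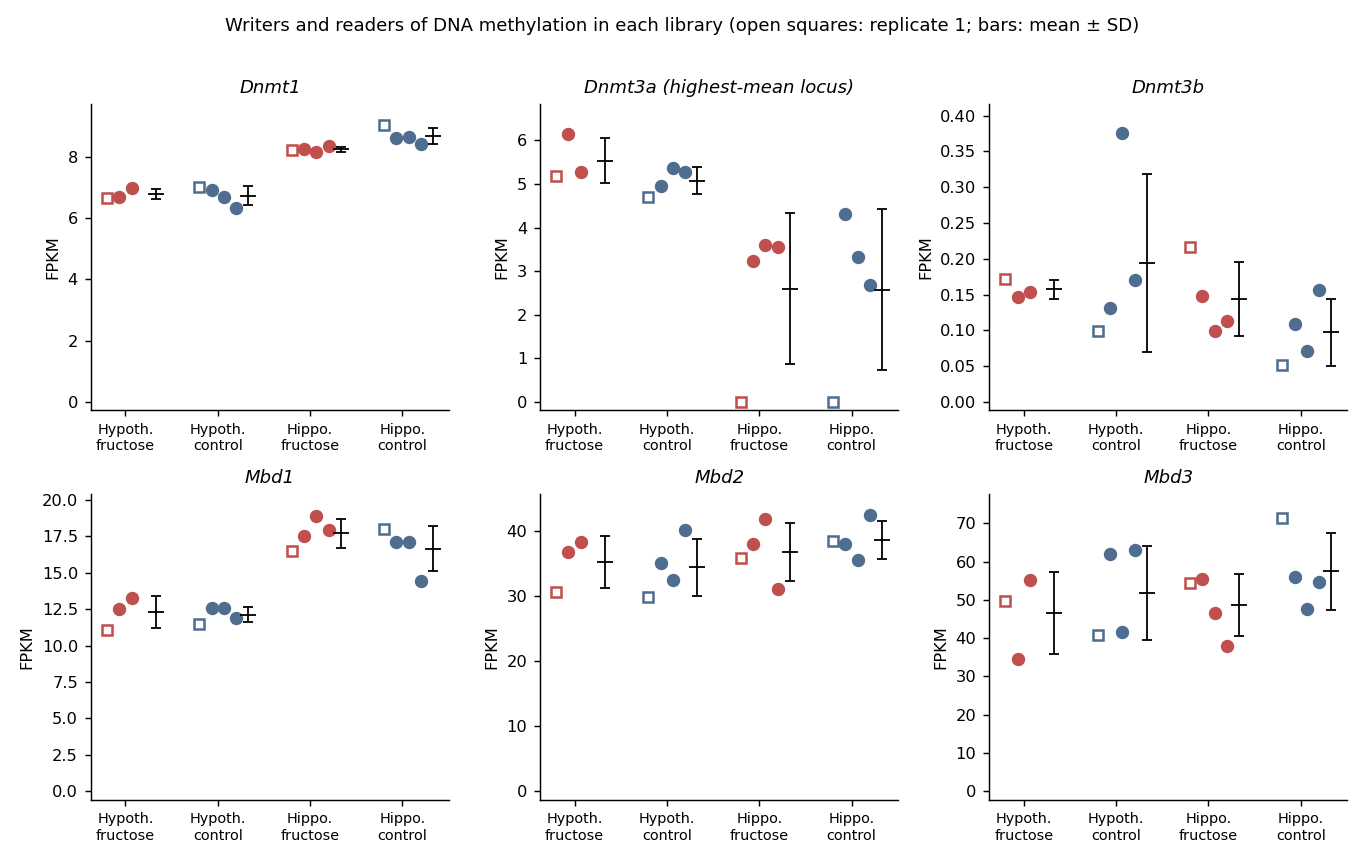
FPKM of the 6 measured genes in each library; points are libraries, open squares are replicate 1, and bars give the mean ± SD of each group (3 libraries for fructose hypothalamus, 4 for the others). Dnmt1 of fructose hippocampus lies just below its controls, whereas the fructose and control libraries of the other genes overlap in both regions.

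Whether fructose changed the transcripts of these genes was asked within each region, with limma's moderated test on log2(FPKM + 1) over all loci with a mean of at least 1 FPKM. None of the 5 tested genes passed an adjusted p of 0.05 in either region, and none reached an unadjusted p of 0.05. Over all loci, 0.0087% (1 of 11498) passed in the hypothalamus and 0% (0 of 11385) in the hippocampus, and 3.14% and 0.808% reached an unadjusted p of 0.05. Against these shares, a count of 0 among 5 genes does not set them apart. The adjusted p was 1 for each of the 5 genes in both regions in the limma test, and it is not repeated below.

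Dnmt1, the maintenance methyltransferase, had 6.68, 6.70 and 6.98 FPKM in fructose hypothalamus libraries, against 7.01, 6.91, 6.70 and 6.32 FPKM in control hypothalamus libraries. The groups overlapped, with a log2 difference of 0.01 ± 0.11 (SE; 95% interval -0.24 to 0.26). In the hippocampus, Dnmt1 had 8.22, 8.26, 8.17 and 8.34 FPKM in fructose libraries, against 9.04, 8.61, 8.66 and 8.44 FPKM in control libraries. All 4 fructose hippocampus libraries were below all 4 controls, with means of 8.25 ± 0.0729 and 8.69 ± 0.254 FPKM (SD, n = 4 each), a gap of -5.05% between the means. The log2 difference was -0.07 ± 0.08 (95% interval -0.26 to 0.12; unadjusted p = 0.447 in the limma test). Of all tested loci, 0.413% were lower in fructose hippocampus without overlap and 0.668% were apart in either direction. When the libraries were scaled to the same median FPKM, the Dnmt1 groups overlapped. The summed level of 6 proliferation markers, among them Mki67 and Top2a, was 4.36 to 6.91 FPKM in fructose and 4.38 to 11.0 FPKM in control hippocampus libraries, and its part in the Dnmt1 values was not tested.

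Dnmt3a, the de novo methyltransferase most used in adult neurons, was represented differently in the 2 tables. The hypothalamus table held a single Dnmt3a locus, with 5.19, 6.14 and 5.28 FPKM in fructose libraries, against 4.69, 4.95, 5.37 and 5.26 FPKM in control libraries. The groups overlapped, with a mean 9.18% higher in fructose hypothalamus and a log2 difference of 0.11 ± 0.12 (SE; 95% interval -0.17 to 0.38). The hippocampus table split Dnmt3a between a pair of loci, and reads may have been shared between them, so the level of either is uncertain. The locus with the higher mean was listed at 0, 3.24, 3.59 and 3.55 FPKM in fructose hippocampus libraries, against 0, 4.31, 3.33 and 2.67 FPKM in control hippocampus libraries. Both zeros belonged to replicate 1, and the second locus was highest in those same libraries. That second locus had 3.13, 1.88, 1.84 and 2.11 FPKM in fructose hippocampus libraries, against 3.97, 1.83, 2.21 and 1.82 FPKM in control hippocampus libraries. The 2 loci together came to 3.13, 5.12, 5.44 and 5.66 FPKM in fructose and 3.97, 6.14, 5.54 and 4.49 FPKM in control hippocampus libraries. The sum thus remained lowest in replicate 1 of each group, and the groups overlapped. The log2 difference was 0.02 ± 0.66 for the main locus (95% interval -1.49 to 1.52), -0.07 ± 0.22 for the second locus and -0.06 ± 0.18 for their sum. On the FPKM + 1 scale the interval of the main locus covers fold changes between 0.357 and 2.88, so changes within that range were not excluded there. With the replicate number as a block, which takes up both zeros, the SE of the main locus was 0.15. The replicate 1 pair, listed at 0 in both libraries, then enters with a difference of exactly 0. The smaller SE therefore does not show a more precise estimate for this locus.

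**Figure D2:**
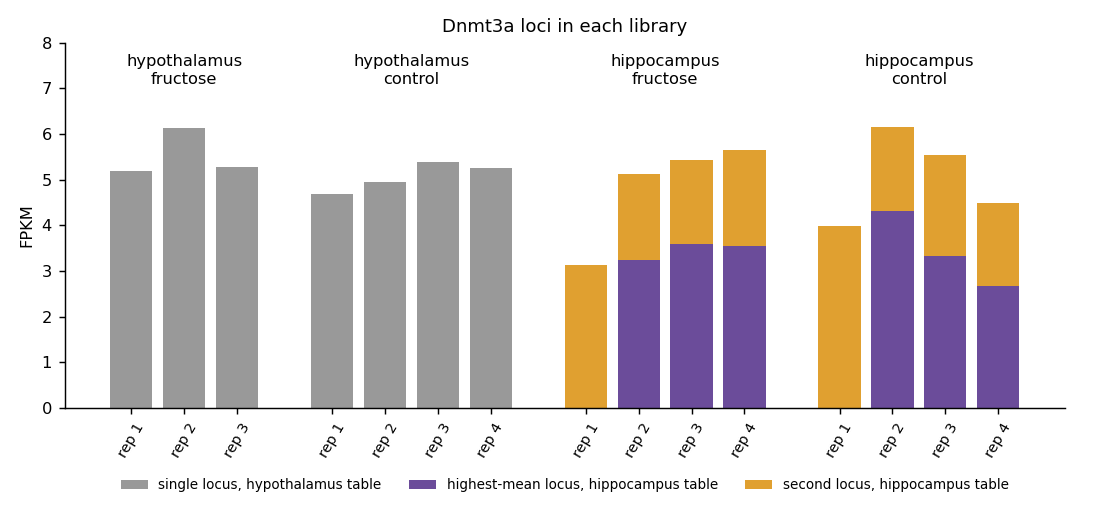
FPKM of the Dnmt3a loci in each library, as stacked bars from 0; grey is the single locus of the hypothalamus table, purple the highest-mean locus and yellow the second locus of the hippocampus table. Replicate 1 of both hippocampus groups holds the second locus alone, at 3.13 FPKM in fructose and 3.97 FPKM in control.

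Mbd1 and Mbd2 had the smaller differences between diets among the readers. Mbd1 had 11.1, 12.5 and 13.3 FPKM in fructose hypothalamus libraries, against 11.5, 12.6, 12.6 and 11.9 FPKM in control hypothalamus libraries, with a log2 difference of 0.02 ± 0.11 (SE; 95% interval -0.25 to 0.28). In the hippocampus, Mbd1 had 16.5, 17.5, 18.9 and 17.9 FPKM in fructose libraries, against 18.0, 17.1, 17.1 and 14.5 FPKM in control libraries, with a log2 difference of 0.08 ± 0.10 (95% interval -0.15 to 0.32). The groups overlapped in both regions. Mbd2 had 30.6, 36.7 and 38.2 FPKM in fructose hypothalamus libraries, against 29.9, 35.0, 32.5 and 40.1 FPKM in control hypothalamus libraries, with a log2 difference of 0.04 ± 0.14 (95% interval -0.30 to 0.37). Its hippocampus values were 35.8, 38.0, 41.8 and 31.1 FPKM in fructose libraries, against 38.4, 38.0, 35.5 and 42.4 FPKM in control libraries, with a log2 difference of -0.08 ± 0.12 (95% interval -0.34 to 0.19). Fructose and control libraries of Mbd2 were interleaved, and the lowest hippocampus value was fructose replicate 4.

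Mbd3, the NuRD subunit, varied most between libraries among the readers. It had 49.8, 34.6 and 55.3 FPKM in fructose hypothalamus libraries, against 40.7, 61.9, 41.7 and 63.2 FPKM in control hypothalamus libraries, which fell into a low and a high pair. The log2 difference was -0.15 ± 0.23 (SE; 95% interval -0.69 to 0.40). The same 2 control hypothalamus libraries, replicates 2 and 4, were also the highest of their group in the summed markers of neurons, astrocytes, oligodendrocytes and oligodendrocyte precursors. In endothelial markers they were the lowest, at 81.3 and 85.2 FPKM. For microglia markers control replicate 1 was the highest, at 126 FPKM. In meningeal fibroblast and proliferation markers control replicate 4 was the highest and replicate 2 the lowest. Fructose hypothalamus replicate 2 had the lowest Mbd3 of its group but the highest astrocyte and oligodendrocyte precursor sums, at 3062 and 196 FPKM. For the 6 oligodendrocyte markers the sums were 4817, 6748 and 7110 FPKM in fructose hypothalamus, against 6180, 7812, 4622 and 8458 FPKM in control hypothalamus, in the same order of libraries. In the hippocampus, Mbd3 had 54.5, 55.5, 46.7 and 38.0 FPKM in fructose libraries, against 71.5, 55.9, 47.7 and 54.6 FPKM in control libraries. The means were 48.7 ± 8.15 and 57.4 ± 10.1 FPKM (SD, n = 4 each), a gap of -15.2%, with a log2 difference of -0.23 ± 0.17 (95% interval -0.61 to 0.15; unadjusted p = 0.195 in the limma test). This was the smallest unadjusted p of the 5 genes in either region, and the groups overlapped. In the hippocampus the oligodendrocyte sums were 3558, 1734, 3781 and 3448 FPKM in fructose and 2488, 2845, 4704 and 3902 FPKM in control libraries. The order of the 4 control hippocampus libraries in this sum was the reverse of that in Mbd3, while the fructose hippocampus libraries did not show the reverse order. The part of these markers in the Mbd3 values was not tested.

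The fructose difference of each gene was then compared between regions with a treatment-by-region term over 9931 symbols. The log2 difference in the hypothalamus less that in the hippocampus was 0.08 ± 0.13 for Dnmt1, 0.09 ± 0.73 for Dnmt3a, -0.07 ± 0.15 for Mbd1, 0.11 ± 0.19 for Mbd2 and 0.09 ± 0.29 for Mbd3 (SE). None passed in the limma test, where the adjusted p was 1 for each and the smallest unadjusted p was 0.563. Over all symbols 0% passed and 2.31% reached an unadjusted p of 0.05.

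**Figure D3:**
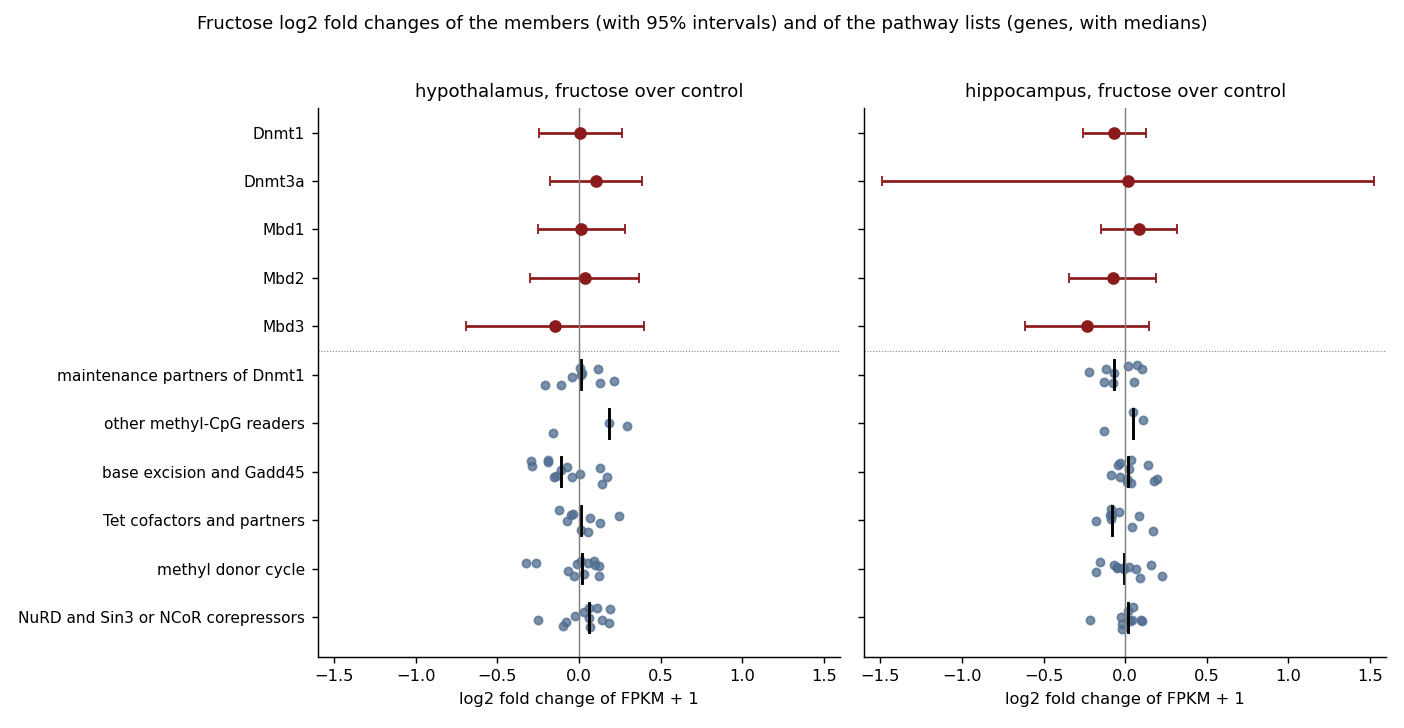
Log2 fold change of FPKM + 1, fructose over control, in the hypothalamus (left) and the hippocampus (right). Red points with bars are the 5 tested genes with their 95% intervals, blue points are the genes of the 6 related lists and black lines their medians; every red bar crosses 0, and that of hippocampus Dnmt3a is the widest, from -1.49 to 1.52.

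Same-numbered fructose and control libraries deviated together most clearly in replicate 1 (r = 0.848 in the hypothalamus and 0.892 in the hippocampus). Over replicates 2 to 4 alone r was 0.269 and 0.036 in the hypothalamus. It was -0.226, 0.404 and 0.0882 in the hippocampus, so the pairing of those replicates is uncertain. The direction within each same-numbered pair was also read, a step chosen after the other values were seen. In the hippocampus, Dnmt1 and Mbd3 were lower in the fructose library of 4 of 4 pairs, a pattern that 4.37% of all tested loci shared in that direction. With the replicate number as a block in limma, Mbd3 had a log2 difference of -0.23 ± 0.13 (SE; unadjusted p = 0.112, adjusted p = 1) and Dnmt1 of -0.07 ± 0.09 (unadjusted p = 0.497, adjusted p = 1). In the hypothalamus, Mbd2 was higher in the fructose library of 3 of 3 pairs, as were 14.2% of all tested loci, and its blocked log2 difference was 0.11 ± 0.10 (unadjusted p = 0.322, adjusted p = 0.922 in limma). Control hypothalamus replicate 4 has no fructose partner, so blocked hypothalamus differences do not draw on it. The other members had mixed signs over the pairs.

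Because replicate 1 stood apart, the same differences were taken without it, which left 2 fructose and 3 control libraries in the hypothalamus and 3 of each in the hippocampus. In the hypothalamus the log2 differences were then 0.04 for Dnmt1, 0.11 for Dnmt3a, 0.06 for Mbd1, 0.07 for Mbd2 and -0.31 for Mbd3, and the fructose and control values of each gene still overlapped, at a setting where 27.6% of all hypothalamus loci were apart. In the hippocampus they were -0.05 for Dnmt1, 0.02 for the main Dnmt3a locus, 0.15 for Mbd1, -0.07 for Mbd2 and -0.18 for Mbd3. Dnmt1 of fructose hippocampus was again below all controls and Mbd1 was above them, at a setting where 4.05% of all loci were apart in either direction. The Mbd3 difference between the regions took the opposite sign, at -0.13. No gene passed, with adjusted p between 0.727 and 1 in the limma test.

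The genes that work with these proteins were followed in 6 lists. No gene of any list passed in either region, and none reached an unadjusted p of 0.05 in the limma test without a replicate block. In the list of maintenance partners of Dnmt1, 6 of 9 tested genes had a positive log2 difference in the hypothalamus (list median 0.02) and 4 of 9 in the hippocampus (median -0.07). Over all tested loci 51.5% were positive in the hypothalamus and 48.6% in the hippocampus, with medians of 0.01 and 0.00. Dmap1, which binds Dnmt1, averaged 9.23 ± 1.70 FPKM in fructose and 10.9 ± 1.69 FPKM in control hippocampus libraries (SD, n = 4 each; log2 difference -0.22 ± 0.17, SE). Hells, a chromatin remodeller needed for normal methylation of repeats, averaged 2.10 ± 0.279 FPKM in fructose and 1.67 ± 0.345 FPKM in control hypothalamus libraries (n = 3 and 4) at the highest of its 3 loci, and its level is uncertain. Both had overlapping groups, but Dmap1 was lower in the fructose library of 4 of 4 hippocampus pairs and Hells higher in 3 of 3 hypothalamus pairs. With the replicate block in limma the Dmap1 difference was -0.22 ± 0.09 (SE; unadjusted p = 0.0492, adjusted p = 1) and the Hells difference 0.15 ± 0.14 (unadjusted p = 0.314, adjusted p = 0.919). Gadd45a in the hypothalamus also reached an unadjusted p of 0.05 with the block, at an adjusted p of 0.739 in limma, and no listed gene passed the adjusted threshold.

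Among the other methyl-CpG readers, 2 of 3 tested genes had a positive log2 difference in each region, with list medians of 0.18 in the hypothalamus and 0.04 in the hippocampus. Zbtb38, a zinc finger protein that binds methylated CG, had 7.20, 8.23 and 7.64 FPKM in fructose hypothalamus libraries, against 7.05, 6.63, 6.01 and 6.93 FPKM in control hypothalamus libraries. All 3 fructose values were above all 4 controls, a separation that 1.75% of all tested loci also showed in that direction (log2 difference 0.18 ± 0.12, SE; unadjusted p = 0.16 and adjusted p = 1 in the limma test). Mbd6, a paralog with an MBD domain, followed the replicate: it had 4.40, 9.51 and 13.0 FPKM in fructose and 4.75, 8.84, 11.3 and 15.4 FPKM in control hypothalamus libraries, with replicate 1 the lowest of each group. In the hippocampus replicate 1 was instead the highest of each group, at 4.85 FPKM in fructose and 4.76 FPKM in control.

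In the base excision and Gadd45 list, through which oxidised or deaminated cytosines are replaced, 4 of 13 tested genes had a positive log2 difference in the hypothalamus (median -0.11) and 8 of 12 in the hippocampus (median 0.02). Gadd45b, an activity-induced gene linked to active demethylation in mouse hippocampus, had 5.02, 5.98 and 6.54 FPKM in fructose hypothalamus libraries, against 6.51, 7.37, 6.77 and 9.05 FPKM in control hypothalamus libraries. The highest fructose value lay just above the lowest control (log2 difference -0.30 ± 0.15, SE; unadjusted p = 0.0904 in the limma test). Gadd45a, of the same family, averaged 13.0 ± 4.09 FPKM in fructose and 15.8 ± 2.53 FPKM in control hypothalamus libraries (n = 3 and 4). Polb, the repair polymerase, averaged 10.4 ± 0.507 FPKM in fructose and 9.11 ± 1.77 FPKM in control hippocampus libraries, and Ung, the uracil glycosylase, 3.26 ± 0.150 FPKM in fructose and 2.81 ± 0.590 FPKM in control hippocampus libraries (n = 4 each). The groups of all 3 overlapped.

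The list of Tet cofactors and partners holds the isocitrate dehydrogenases that supply the 2-oxoglutarate on which Tet enzymes depend, and stands nearest to the erasers that were not analysed here. There, 5 of 9 genes had a positive log2 difference in the hypothalamus (median 0.02) and 3 of 9 in the hippocampus (median -0.08). Idh3a, a subunit of the NAD-dependent mitochondrial enzyme, averaged 122 ± 15.1 FPKM in fructose and 111 ± 15.6 FPKM in control hypothalamus libraries (n = 3 and 4), and 81.9 ± 2.40 FPKM in fructose and 87.3 ± 7.60 FPKM in control hippocampus libraries (n = 4 each). Its groups overlapped in both regions.

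The methyl donor cycle makes S-adenosylmethionine, the substrate of the Dnmt enzymes. Of its genes, 7 of 12 had a positive log2 difference in the hypothalamus (median 0.02) and 5 of 12 in the hippocampus (median -0.01). Cbs, which draws homocysteine out of the cycle, had 38.6, 49.3 and 53.0 FPKM in fructose hypothalamus libraries, against 43.1, 61.4, 50.1 and 74.6 FPKM in control hypothalamus libraries (log2 difference -0.26 ± 0.21, SE; unadjusted p = 0.248 in the limma test). The groups overlapped, and replicate 1 was the lowest of each. Ahcy, which removes the inhibitory product S-adenosylhomocysteine, averaged 35.5 ± 3.71 FPKM in fructose and 32.6 ± 3.51 FPKM in control hypothalamus libraries (n = 3 and 4), and 24.6 ± 1.42 FPKM in fructose and 28.2 ± 4.58 FPKM in control hippocampus libraries (n = 4 each), with overlapping groups in both regions.

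Of the NuRD, Sin3 and NCoR corepressors that the Mbd proteins recruit, 8 of 12 tested genes had a positive log2 difference in the hypothalamus (median 0.06) and 7 of 11 in the hippocampus (median 0.02). Mta1, a NuRD subunit, had 22.2, 18.5, 18.2 and 19.9 FPKM in fructose hippocampus libraries, against 23.6, 26.1, 22.8 and 19.9 FPKM in control hippocampus libraries (log2 difference -0.22 ± 0.12, SE; unadjusted p = 0.0969 in the limma test). Its groups overlapped at a single control library. Hdac1, the NuRD and Sin3 deacetylase, averaged 10.7 ± 2.13 FPKM in fructose and 13.0 ± 3.26 FPKM in control hypothalamus libraries, and Sin3a, the scaffold of the Sin3 complex, 9.57 ± 0.489 FPKM in fructose and 8.59 ± 0.381 FPKM in control hypothalamus libraries (n = 3 and 4), both with overlapping groups. Meningeal fibroblast markers stood apart in these same libraries: the sum of 6 was 13.9 to 96.1 FPKM in fructose and 113 to 207 FPKM in control hypothalamus libraries, with 3 of the 6 genes apart between groups, against 3.33% of all tested hypothalamus loci in either direction. As the lists were chosen with earlier results of these data known, that count and share are not an independent comparison. The sum was 113 to 396 FPKM in fructose and 17.8 to 288 FPKM in control hippocampus libraries. Their part in the values of these lists and of the 5 genes was not tested.

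The regions were set side by side in the control libraries without a test, because the tables were normalized separately and each has its own locus numbering, so locus lengths may differ. Log2 differences were taken after subtracting the median difference of 9931 symbols, which was 0.18 higher in the hypothalamus. Dnmt1 averaged 6.73 ± 0.304 FPKM in control hypothalamus and 8.69 ± 0.254 FPKM in control hippocampus (SD, n = 4 each), a centred log2 difference of -0.51, or -0.33 before centring. Mbd1 averaged 12.1 ± 0.538 FPKM in control hypothalamus and 16.7 ± 1.52 FPKM in control hippocampus, a centred log2 difference of -0.61, or -0.42 before centring. All 4 hypothalamus values of both genes lay below all 4 hippocampus values, with and without centring. Mbd2 averaged 34.3 ± 4.35 FPKM in control hypothalamus and 38.6 ± 2.89 FPKM in control hippocampus, a centred log2 difference of -0.35 without overlap; its groups overlapped before centring, without control hippocampus replicate 1 and without both replicate 1 libraries. Mbd3 averaged 51.9 ± 12.3 FPKM in control hypothalamus and 57.4 ± 10.1 FPKM in control hippocampus, a centred log2 difference of -0.34 with overlap.

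Thus 3 of the 5 genes were lower in control hypothalamus without overlap and none was higher, against 23.8% lower and 24.3% higher without overlap among all symbols, 48.1% in either direction. Separation between the regions was common, and the differences of Mbd1 and Dnmt1 were not extreme: 21.3% and 24.9% of all symbols had a lower difference. Dnmt3a averaged 5.07 ± 0.310 FPKM at its hypothalamus locus and 2.58 ± 1.84 FPKM at its main hippocampus locus, a centred log2 difference of 0.82 with overlap. With the hippocampus loci summed, the Dnmt3a mean was 5.04 ± 0.983 FPKM in control hippocampus and the centred difference was -0.16, so no direction is drawn for Dnmt3a. Its groups were apart, higher in the hypothalamus, before centring, without both replicate 1 libraries and without control hippocampus replicate 2, all at the main locus alone. Without both replicate 1 libraries the centred differences were -0.47 for Dnmt1, -0.51 for Mbd1, -0.26 for Mbd2, -0.10 for Mbd3 and 0.35 for Dnmt3a, and 68.3% of all symbols were apart.

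**Figure D4:**
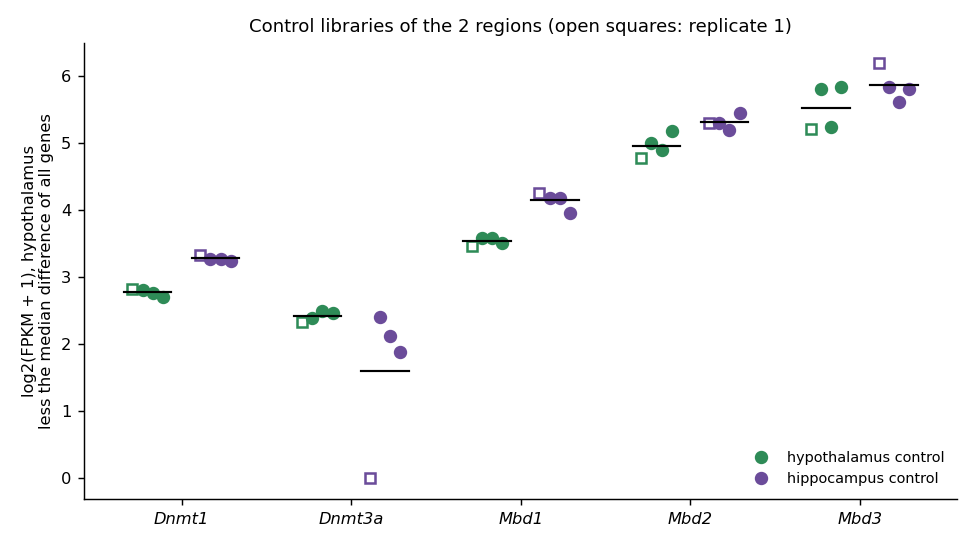
Log2(FPKM + 1) of the 5 genes in control libraries of the hypothalamus (green, left, lowered by the median difference of all symbols) and the hippocampus (purple, right); open squares are replicate 1 and lines are means of 4 libraries. Dnmt1, Mbd1 and Mbd2 do not overlap between regions, and hippocampus Dnmt3a spreads because its replicate 1 is listed at 0.

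In the related lists, Zbtb38 averaged 6.66 ± 0.466 FPKM in control hypothalamus and 9.05 ± 0.535 FPKM in control hippocampus (SD, n = 4 each), a centred log2 difference of -0.57. This reader thus lay on the same side as Dnmt1 and Mbd1, without overlap. Trim28, a corepressor that guides methylation at imprinted loci, lay on the other side, at 77.6 FPKM in control hypothalamus and 41.2 FPKM in control hippocampus, a difference of 0.72. Cxxc4, a CXXC protein that binds Tet2, averaged 8.80 ± 0.403 FPKM in control hypothalamus and 4.10 ± 0.504 FPKM in control hippocampus, a difference of 0.77, also without overlap. By list, the genes higher and lower without overlap in control hypothalamus numbered 2 and 2 of 8 maintenance partners, 0 and 2 of 3 other readers, and 2 and 4 of 12 in the base excision and Gadd45 list. They numbered 3 and 2 of 9 Tet cofactors, 4 and 2 of 12 methyl donor genes, and 1 and 0 of 11 corepressors, against the 48.1% over all symbols.

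The symbols whose profile over the 15 libraries was most like that of the highest writer and reader were taken after centring each region on its own mean. For Dnmt1 they were F2r, a thrombin receptor (Pearson r = 0.73), Arnt2, a bHLH-PAS factor with 2 loci in the hypothalamus table (0.70), and Lcmt2 (0.70), and for Mbd3 they were RGD1307155 (0.82), Galt, an enzyme of galactose metabolism (0.81), and Dhx35 (0.81). These are the highest of 9931 symbols over libraries that share replicate-linked differences, and they are given as a description only.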

How the data were processed

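Poly-A RNA libraries were sequenced on a HiSeq 2000, per the labels. Values were used as the authors deposited them, as FPKM per locus in 1 table per region; alignment and quantification programs (Bowtie, TopHat, Cuffdiff, Cufflinks) and the rn5 build are listed, with no version, per the submitters' processing notes. Raw counts were not recoverable from the FPKM values, so depth and its precision are unknown. Each region was tested in R 4.3.3 with limma 3.58.1 (group as the only term, trend in the prior variance) on log2(FPKM + 1), which understates changes of low genes, over loci with mean FPKM of at least 1, with Benjamini-Hochberg adjustment at 0.05 over all of them. Differences between regions were tested as an interaction over symbols tested in both tables. Tests were run on simulated data first. The members and lists were chosen with earlier results of these data known. All members were named, with up to 3 genes per list and region by smallest unadjusted p, from which examples are given, and the 3 symbols most like the highest writer and reader. Over all replicates, same-numbered fructose and control libraries deviated together (r = 0.848, 0.488 and 0.456 in the hypothalamus, 0.892, 0.208, 0.481 and 0.410 in the hippocampus). Over replicates 2 to 4 alone r was 0.269 and 0.036 in the hypothalamus and -0.226, 0.404 and 0.0882 in the hippocampus, so their pairing is uncertain. The numbers were used as pairs only for the pair directions and the replicate block. Alternatives covered the pseudocount, filter, scaling, weights, replicate block, summed loci and left-out libraries. Promoter windows came from RefSeq (GRCr8), and no coordinate was moved between builds. Some genes of the related lists are not reported here.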

Additional observations from a re-analysis of the deposited data

Results flagged for a closer look

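Dnmt3a of hippocampus fructose replicate 1 was listed at 0 FPKM at its main locus, far from the other fructose hippocampus libraries at 3.24 to 3.59 FPKM, and the gap took 0.901 of the group's whole range. The control hippocampus replicate 1 was also listed at 0. It was the only value set apart among 20 groups of 4 libraries examined, and chance sets apart about 1 group in 20.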

How the results depend on the processing

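No member passed the adjusted threshold in either region, or in the difference between regions, under any setting tried, the replicate block and every left-out library included. With the replicate block, 2 loci instead of 1 passed among all hypothalamus loci, and the log2 difference of Dnmt1 in the hypothalamus became -0.016. The block changed no other call. Its hypothalamus differences for the members equal those without control hypothalamus replicate 4, which has no fructose partner, so these settings are not separate checks. Without a filter on low values, and without both replicate 1 libraries, 2 hypothalamus loci passed, and 0 passed at a mean FPKM of at least 5. With array weights the hippocampus differences became 0.036 for Mbd2 and -0.151 for Dnmt3a, and with loci summed -0.059 for Dnmt3a; without both replicate 1 libraries the Mbd3 difference between regions became -0.129. The cause was not tested. Leaving out 1 library at a time gave 0 to 2 loci in the hypothalamus, 0 to 1 in the hippocampus and 0 to 1 in the difference between regions. The left-out ranges that crossed 0 were -0.016 to 0.027 for Dnmt1, -0.038 to 0.082 for Mbd1, -0.027 to 0.13 for Mbd2 and -0.284 to 0.046 for Mbd3 in the hypothalamus, -0.515 to 0.557 for Dnmt3a in the hippocampus, and -0.452 to 0.62 for Dnmt3a and -0.049 to 0.28 for Mbd3 between regions. Other ranges kept their sign but were wide: -0.14 to -0.002 for Mbd2, 0.022 to 0.121 for Mbd1 and -0.317 to -0.123 for Mbd3 in the hippocampus, and 0.04 to 0.142 for Dnmt3a in the hypothalamus. Array weights gave Mbd3 differences of -0.409 in the hypothalamus and -0.069 in the hippocampus. In controls, 1 member (Dnmt3a) instead of 0 was higher in the hypothalamus without overlap when tables were not centred and without both replicate 1 libraries; leaving out 1 library gave 0 to 1 higher and 2 to 3 lower. With 3 or 4 libraries a group and unknown depth, changes inside the interval given for each gene were not excluded.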
